A study of Mus musculus with 9 samples.

Results

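The MHC class II pathway was represented by 9 mouse genes, taken by symbol from both deposited comparison tables, which list 57010 gene identifiers each. All 9 were found in both tables and all 9 had an adjusted p in both, so none was lost to the filter on low values. They are the chain genes H2-Aa, H2-Ab1 and H2-Eb1, the peptide exchange genes H2-DMa, H2-DMb1 and H2-DMb2, the invariant chain gene Cd74, the protease gene Ctss and the transactivator gene Ciita. RNA came from organoids, small tissue-like bodies grown in culture, in 3 groups of 3 libraries each, 9 libraries in all. GSK was small cell lung cancer (SCLC) organoids treated with an agent that the labels call GSK, SCLC was the tumour organoids without it, and Normal was normal lung organoids. The sources used here do not give the identity of the agent, its dose, the time of treatment, the genotype or strain of the organoids, or the number of donor animals or clones. Where replicates are not separate cultures, the p-values measure a spread that may be technical.

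MHC class II molecules show peptides from endocytosed proteins to CD4+ T cells and are carried mainly by dendritic cells, macrophages and B cells. In lung, alveolar type II cells are also known to carry them. Newly made alpha and beta chains pair in the endoplasmic reticulum around the invariant chain Cd74, which blocks the groove. In endosomes cathepsin S, the product of Ctss, trims Cd74 to a short fragment, and the H2-DM alpha and beta chains then exchange that fragment for antigenic peptide. The transactivator Ciita does not bind DNA itself. It is recruited by the RFX complex, CREB family factors and NF-Y, which sit on the conserved X and Y boxes of class II promoters, and interferon gamma induces Ciita through Jak kinases and the factors they activate.

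The promoter stretches below are shown because these 4 genes share a layout of an X-type motif followed by a Y-type motif, the boxes named above. RefSeq promoters of build GRCm38.p6 were held for 6 members, in 7 entries, and each covered 250 bases before and 50 bases after the start of the gene. The X-type motif was searched as CTNNNAAC and the Y-type motif as TGATTGG, on both strands, and the pair as the first followed by the second on the same strand with 10 to 40 bases between them. The motifs do not overlap each other, and they were chosen after the members' sequences had been read. Each line gives 100 bases, from 130 to 31 bases before the start site, 5′ to 3′ on the strand of the gene, with both motifs in capitals.
H2-Aa, chr17:34287854-34287953, minus strand: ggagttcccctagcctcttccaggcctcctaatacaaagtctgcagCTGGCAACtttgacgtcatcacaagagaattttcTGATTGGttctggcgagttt
H2-Eb1, chr17:34305737-34305836, plus strand: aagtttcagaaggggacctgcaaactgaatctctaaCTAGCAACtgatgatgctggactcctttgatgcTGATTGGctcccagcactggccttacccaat
H2-DMb1, chr17:34153061-34153160, plus strand: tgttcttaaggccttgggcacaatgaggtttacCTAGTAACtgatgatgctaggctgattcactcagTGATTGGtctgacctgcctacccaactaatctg
H2-DMb2, chr17:34145119-34145218, plus strand: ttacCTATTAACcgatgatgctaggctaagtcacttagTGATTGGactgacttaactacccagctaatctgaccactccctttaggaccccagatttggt

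The pair was found in 4 of the 6 members with an entry, the 2 chain genes and 2 exchange genes shown above. The first bases of the motifs lay 34 bases apart in H2-Aa, H2-DMb1 and H2-DMb2 and 33 bases apart in H2-Eb1. Among 32851 promoters of the same length, 41.1% held the X-type motif, 7.82% held the Y-type motif and 72 promoters, or 0.219%, held the pair. In the windows of H2-DMa and Ctss these letters were not found as a pair. H2-Ab1, Cd74 and Ciita had no entry. The promoter of H2-Ob, the beta chain of the related H2-O molecule, also held the pair, 31 bases apart. Those of the chain genes H2-Oa and H2-Eb2, searched as well, did not hold the pair. H2-Eb2 held both motifs but not as a pair, and H2-Oa held only the Y-type motif.

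Each comparison set 3 libraries against 3 and was deposited as 1 mean, fold change, standard error and p-value per gene, with libraries not listed singly. Whether single libraries of a group overlap, or 1 library carries a value, could therefore not be seen. Group means were implied from each deposited mean and fold change, and they summed to 31.9 M normalized counts (M, mega) per library in GSK and 45.3 M in SCLC in the comparison of those groups, and to 42.0 M in SCLC and 44.7 M in Normal in the other. Levels below are such implied mean normalized counts per library, and the depth in raw reads is unknown. The control of the GSK comparison was taken as the SCLC libraries because the implied means matched, so these serve in both comparisons, which are not independent of each other. The tumour label held against its markers: the neuroendocrine factor Insm1 had a mean of 17353 in GSK and 66876 in SCLC, and in the other comparison a mean of 62133 in SCLC against 0.800 in Normal, per the authors' deposited tables. The surfactant gene Sftpc had a mean of 1891873 in Normal organoids, per the authors' deposited table.

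The comparison of GSK with SCLC organoids asked how treatment changed transcript levels in the tumour organoids. All 9 class II pathway genes rose in GSK organoids. Of 28376 genes tested, 37.1% passed an adjusted p of 0.05 per the authors' deposited table, 21.6% as higher and 15.5% as lower in GSK. The summed level of the 9 genes was 56849 normalized counts per library in GSK against 98.4 in SCLC, per the authors' deposited table. The median of the fitted log2 fold changes of the 9 genes was 11.58, against 0.24 over all genes tested, and 11.45 with H2-Aa, Ctss and H2-DMb2, whose whole SCLC group held under 1 normalized count, set at a bound computed against a floor of 3 normalized counts per group. In bulk RNA, fewer cells of a type and less RNA per cell cannot be told apart, here and in all results that follow.

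**Figure D1:**
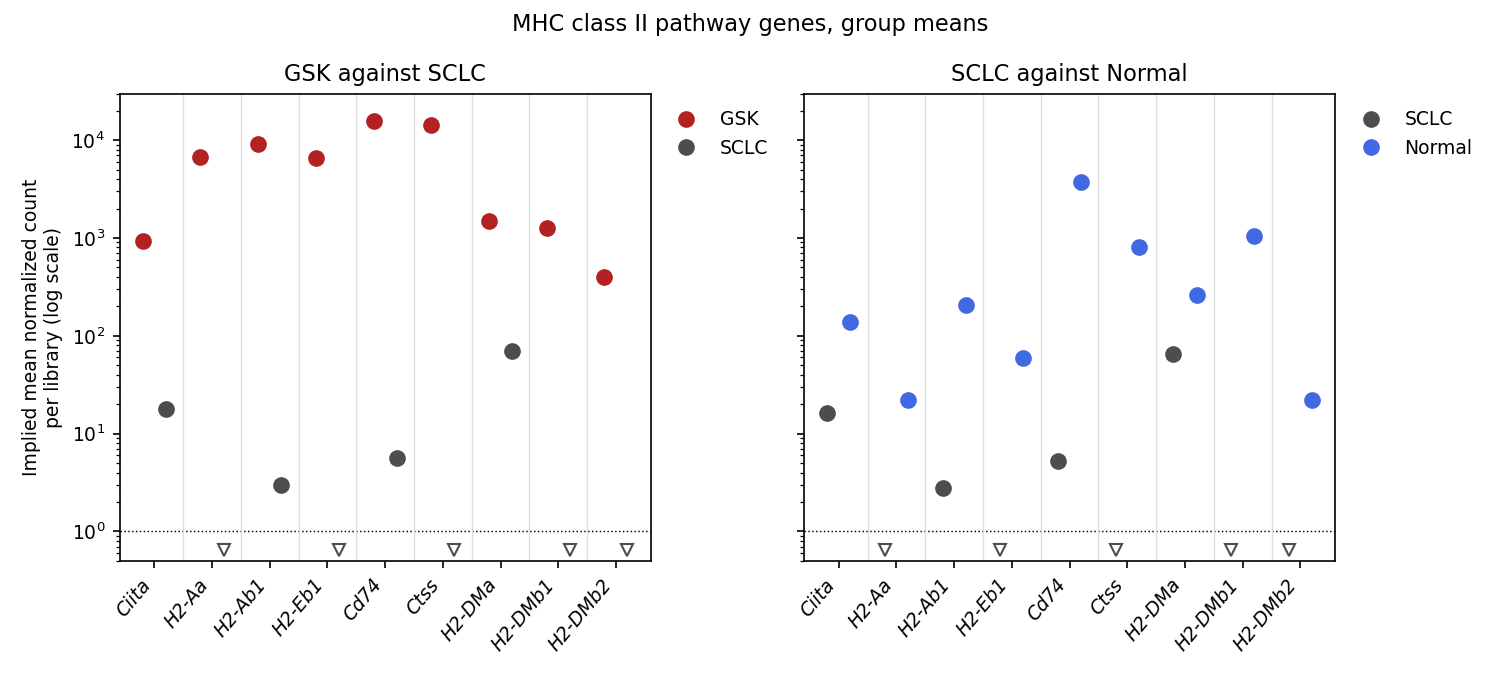
Implied mean normalized count per library (log axis) of the 9 MHC class II pathway genes, in GSK and SCLC organoids from the comparison of those groups (left) and in SCLC and Normal organoids from the other comparison (right), from the authors' deposited tables. Each point is a group mean without an error bar. Open triangles mark 5 genes whose SCLC mean lay under 1 normalized count per library, the dotted line. In each panel, every SCLC value lies below that of the other group.

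The chain genes form the peptide groove, and all 3 were near zero in SCLC organoids. H2-Ab1, the beta chain of the A molecule, had a mean of 9185 normalized counts in GSK against 2.99 in SCLC (log2 fold change 11.58 ± 0.68 SE, 95% interval 10.25 to 12.92, adjusted p = 1.47e-61), per the authors' deposited table. Its partner H2-Aa, the alpha chain, had 6784 in GSK, and in SCLC the whole group held under 1 normalized count, so the level was at least 6780-fold higher in GSK (adjusted p = 4.82e-32), from the authors' deposited table. H2-Eb1, the beta chain of the E molecule, had 6574 in GSK against 0.633 in SCLC (log2 fold change 13.34 ± 0.95 SE, 95% interval 11.47 to 15.21, adjusted p = 9.45e-42), per the authors' deposited table. That SCLC mean stands for under 3 counts in the group, so the size of the rise is known only within its interval.

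Cd74, whose product guards the groove, had 15853 normalized counts in GSK against 5.67 in SCLC (log2 fold change 11.45 ± 0.60 SE, 95% interval 10.27 to 12.63, adjusted p = 9.1e-77), per the authors' deposited table. The protease gene Ctss had 14395 in GSK and under 1 normalized count in the whole SCLC group, at least 14400-fold higher in GSK (adjusted p = 2.22e-38), from the authors' deposited table. Per kilobase of transcript these genes led the 9 in GSK, at a level of 11243 for Cd74 and 10624 for Ctss, per the authors' deposited table. By the fitted fold change Ctss ranked 3 and H2-Aa 11 from the top of the 28376 genes tested, but a fit to a group near zero is no measure of size.

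H2-DMa and Ciita had the smallest folds of the 9. H2-DMa, the alpha chain of the exchange molecule, had 1479 normalized counts in GSK against 70.1 in SCLC (log2 fold change 4.40 ± 0.46 SE, 95% interval 3.50 to 5.30, adjusted p = 6.24e-20), per the authors' deposited table. Ciita, the transactivator, had 925.2 in GSK against 17.9 in SCLC (log2 fold change 5.69 ± 0.69 SE, 95% interval 4.35 to 7.04, adjusted p = 3.72e-15), per the authors' deposited table. These intervals overlapped each other and lay below those of H2-Ab1, H2-Eb1, Cd74 and H2-DMb1. The difference between members was not tested.

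H2-DMa and Ciita are also the members whose exons overlap exons of another gene on the opposite strand in the GENCODE M21 annotation. H2-DMa shares 360 exon bases with Brd2, a bromodomain protein gene, and Ciita shares 329 with Dexi. Brd2 had 15379 normalized counts in GSK against 16532 in SCLC (log2 fold change -0.10 ± 0.22 SE, adjusted p = 0.754), and Dexi had 620.9 in GSK against 1768 in SCLC (log2 fold change -1.51 ± 0.36 SE, adjusted p = 0.000181), per the authors' deposited table. Neither partner was higher in GSK, while both members were. The kit kept the strand, but the strand setting of the counting is not given in the sources used here, and the part of Brd2 and Dexi reads in the SCLC levels of H2-DMa and Ciita was not tested. These partners were looked up after the members' values had been seen.

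The beta chains of the exchange molecule are encoded by a pair of neighbouring genes. H2-DMb1 had 1250.4 normalized counts in GSK against 0.807 in SCLC (log2 fold change 10.60 ± 0.85 SE, 95% interval 8.94 to 12.26, adjusted p = 1.72e-33), per the authors' deposited table. H2-DMb2 had 403.6 in GSK and under 1 normalized count in the whole SCLC group, at least 404-fold higher in GSK (adjusted p = 1.52e-19), from the authors' deposited table. H2-DMb1 transcripts share 22.7% of their 50-base windows and 4.71% of their 150-base windows with H2-DMb2, so reads of these genes could be split between them and their separate levels are less certain than their sum.

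**Figure D2:**
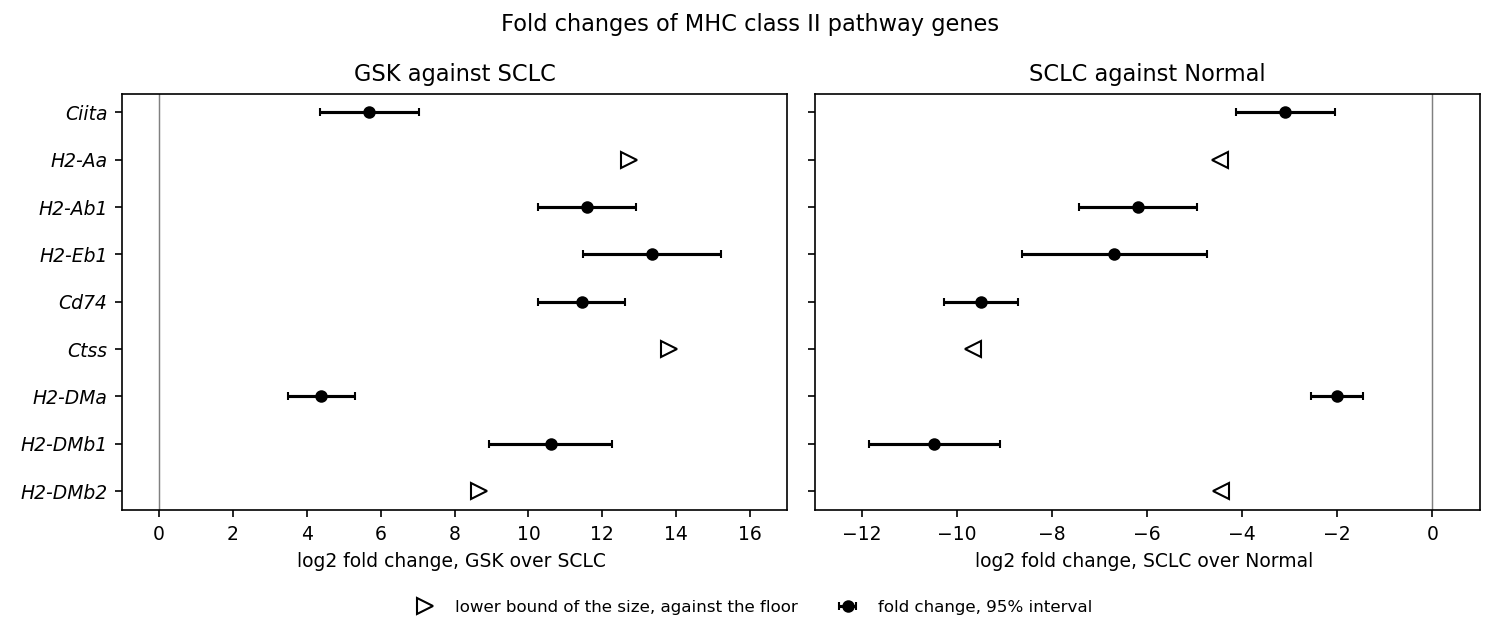
log2 fold change of each of the 9 genes for GSK over SCLC (left) and SCLC over Normal (right), with the 95% interval from the authors' standard error (black points and bars). Open triangles are lower bounds of the size of the change for H2-Aa, Ctss and H2-DMb2, whose SCLC group held under 1 normalized count. All 9 lie right of 0 for GSK over SCLC and left of 0 for SCLC over Normal, and H2-DMa and Ciita lie nearest to 0 in both.

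The comparison of SCLC with Normal organoids asked how the tumour organoids differed from normal lung organoids. All 9 genes fell in SCLC organoids, where 50.4% of 24719 genes passed per the authors' deposited table, 25.1% as lower and 25.3% as higher in SCLC. Their summed level was 90.9 normalized counts per library in SCLC against 6326 in Normal, per the authors' deposited table. The median of the 9 fitted log2 fold changes was -8.07, or -6.19 with H2-Aa, Ctss and H2-DMb2 at their bound, against 0.10 over all genes tested.

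Per kilobase of transcript, Cd74, H2-DMb1 and Ctss led in Normal organoids, at levels of 2666, 746.3 and 596.2, from the authors' deposited table. The chain genes stood lower, at 169.2 for H2-Ab1, 35.9 for H2-Eb1 and 19.5 for H2-Aa. Between them lay H2-DMa at 158.0, above H2-Eb1, and Ciita at 23.3, above H2-Aa. All of these fell in SCLC. Cd74 had 5.20 normalized counts in SCLC against 3759 in Normal, H2-DMb1 had 0.735 in SCLC against 1048 in Normal (log2 fold change -10.48 ± 0.71 SE, 95% interval -11.86 to -9.09), and Ctss was at least 808-fold lower in SCLC, from the authors' deposited table. The chain gene H2-Ab1 had 2.81 in SCLC against 205.1 in Normal (log2 fold change -6.19 ± 0.64 SE, adjusted p = 4.03e-21) and H2-Eb1 had 0.581 in SCLC against 60.0 in Normal (log2 fold change -6.69 ± 0.99 SE, adjusted p = 9.99e-11), per the authors' deposited table. H2-Aa was at least 22.0-fold lower in SCLC (adjusted p = 3.03e-07) and H2-DMb2 at least 21.8-fold lower (adjusted p = 6.35e-07), from the authors' deposited table. Those bounds are set by the low Normal means of 22.0 and 21.8 and do not say that these genes fell less than the others.

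By the fitted fold change, the smallest falls were again those of H2-DMa and Ciita. H2-DMa had 64.9 normalized counts in SCLC against 262.0 in Normal (log2 fold change -2.01 ± 0.28 SE, 95% interval -2.56 to -1.47, adjusted p = 4.1e-12), per the authors' deposited table. Ciita had 16.4 in SCLC against 139.8 in Normal (log2 fold change -3.09 ± 0.53 SE, 95% interval -4.14 to -2.05, adjusted p = 3.62e-08), per the authors' deposited table. Of the opposite-strand partners neither passed: Brd2 had a log2 fold change of 0.24 ± 0.24 SE (adjusted p = 0.414) and Dexi of -0.28 ± 0.33 SE (adjusted p = 0.496) for SCLC over Normal, per the authors' deposited table.

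GSK and Normal organoids are not compared in either deposited table, and the tables were scaled separately. GSK levels were therefore brought to the scale of the comparison of SCLC with Normal, using the median ratio of SCLC means between the tables, a log2 value of 0.11 with an SD of 0.0084 over 13634 genes, and no test was made. On that scale all 9 genes had their highest mean in GSK, their next in Normal and their lowest in SCLC, from the authors' deposited tables. The GSK level of H2-Aa was 286 times that of Normal, of H2-Eb1 102 times, of H2-Ab1 41.5 times, of H2-DMb2 17.2 times and of Ctss 16.5 times, from the authors' deposited tables. Nearer to Normal were Ciita at 6.14 times, H2-DMa at 5.23 times and Cd74 at 3.91 times, and H2-DMb1, at 1159 in GSK against 1048 in Normal, differed by 1.11 times, from the authors' deposited tables. The H2-Aa value rests on a Normal mean of 22.0 normalized counts. Such an excess was not particular to these genes: Cdh5 stood at 181 times Normal, Ptprc at 80.7 times and Pecam1 at 78.1 times. Other listed genes lay below Normal, such as Marco at 0.455 times and Scgb1a1 at 0.292 times. With no test across the tables, none of these orders between GSK and Normal has an error, and for H2-DMb1 the levels are too close to give one.

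The make-up of the pathway's RNA differed as well when each level was divided by the length of the longest principal transcript. Cd74 made up 27.0% of the summed level per kilobase of the 9 genes in GSK against 60.2% in Normal, from the authors' deposited tables. The chain genes held larger shares in GSK: H2-Ab1 had 18.2% in GSK against 3.82% in Normal, H2-Aa 14.5% in GSK against 0.44% in Normal and H2-Eb1 9.46% in GSK against 0.81% in Normal, from the authors' deposited tables. Ctss held 25.5% in GSK against 13.5% in Normal and H2-DMb1 2.14% in GSK against 16.8% in Normal, from the authors' deposited tables. In SCLC, where the sum was small, H2-DMa alone made up 79.9%.

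**Figure D3:**
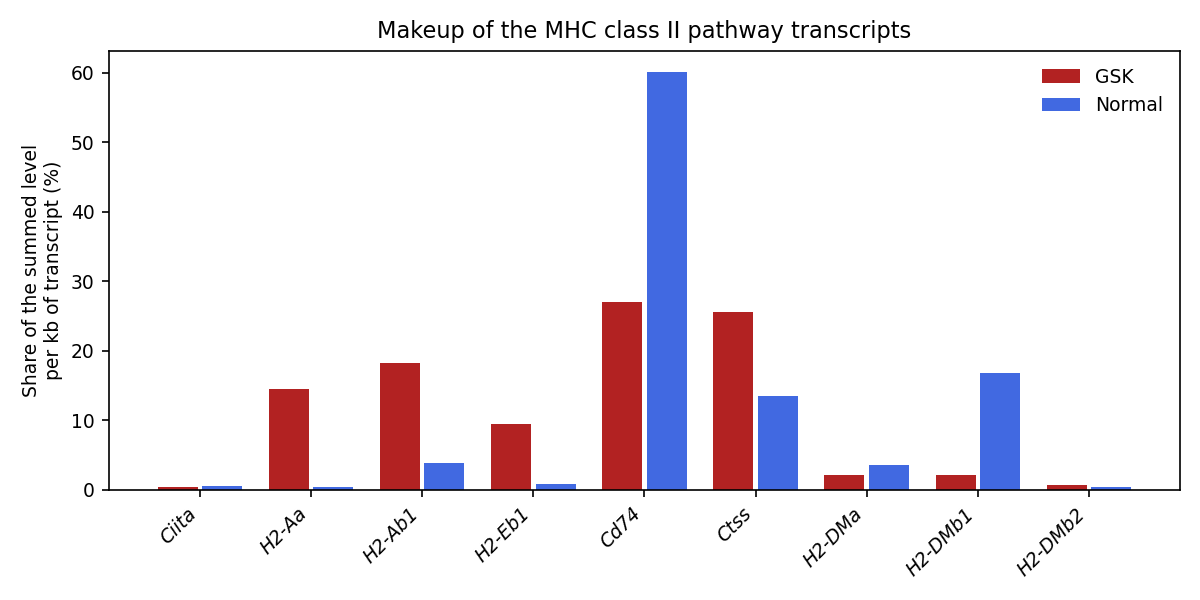
Share (%) of each gene in the summed level per kilobase of the 9 MHC class II pathway genes, in GSK and in Normal organoids, from the authors' deposited tables, without error bars. Cd74 leads in both groups, and the chain genes H2-Ab1, H2-Aa and H2-Eb1 hold larger shares in GSK.

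Ratios between members per kilobase need no common scale of the tables. Cd74 stood at 1.87 times H2-Aa in GSK against 137 times in Normal, and H2-Ab1 at 1.26 times H2-Aa in GSK against 8.68 times in Normal, from the authors' deposited tables. The alpha and beta chains of the A molecule, which pair in equal numbers, were thus nearer to each other in level in GSK. H2-DMb1 stood at 3.14 times H2-DMb2 in GSK against 48.7 times in Normal, from the authors' deposited tables. These ratios carry no error, since the authors' standard errors are for 1 gene across groups. With exon length in place of transcript length, an alternative chosen after the data were seen, Ctss led in GSK with 35.0% and Cd74 followed with 31.2%. By exon length H2-Aa held 5.90% in GSK against 0.16% in Normal and H2-Ab1 11.8% in GSK against 2.17% in Normal. Cd74 then stood at 5.29 times H2-Aa in GSK against 387 times in Normal, and H2-Ab1 at 2.002 times H2-Aa in GSK against 13.8 times in Normal. The length changes such a ratio by the same factor in GSK and in Normal.

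Other class II chain genes, of which 4 were listed, were tested for 3 in GSK over SCLC, and all 3 rose. Beside these 3, the share of all genes tested that passed as higher in GSK was 21.6%. H2-Ob, the beta chain of the inhibitor of H2-DM, was at least 463-fold higher in GSK and H2-Oa, its alpha chain, at least 36.1-fold higher (adjusted p = 6.17e-20 and 1.96e-06), from the authors' deposited table. H2-Eb2 had 86.0 normalized counts in GSK against 2.998 in SCLC (log2 fold change 4.84 ± 0.61 SE, adjusted p = 3.98e-14), per the authors' deposited table. Between SCLC and Normal only H2-Eb2 could be tested and it did not pass, with 2.42 in SCLC against 0.358 in Normal (adjusted p = 0.334), per the authors' deposited table. H2-Oa and H2-Ob are known mainly from B cells and some dendritic cells, and both lay under the floor in SCLC and in Normal. H2-Ea had no adjusted p in either table. With bounds, the median of the 3 tested in GSK over SCLC was 5.17.

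None of the factors that sit on class II promoters passed as higher in GSK. Of the 8, 2 passed as lower in GSK over SCLC, with a median log2 fold change of -0.31, per the authors' deposited table. Over all genes tested, 21.6% passed as higher in GSK and 15.5% as lower, so counts this small do not set the 8 apart. Rfxap, a subunit of the RFX complex, had 1510 normalized counts in GSK against 2570 in SCLC (log2 fold change -0.77 ± 0.28 SE, adjusted p = 0.0207) and Nfya, a subunit of NF-Y, 2550 in GSK against 3914 in SCLC (log2 fold change -0.62 ± 0.26 SE, adjusted p = 0.0486), per the authors' deposited table. Neither call held with scaling to total counts (adjusted p = 0.496 for Rfxap and 0.771 for Nfya) or centring on abundant genes (adjusted p = 0.14 and 0.274), and Creb1 then passed as higher in GSK. The other 6 did not pass, with log2 fold changes of -0.33 for Rfx5, -0.29 for Rfxank, 0.14 for Nfyb, -0.33 for Nfyc, 0.59 for Creb1 and -0.10 for Atf1, per the authors' deposited table. In SCLC over Normal 3 rose and none fell, Rfxap by 1.32 ± 0.24 SE, Nfyb by 1.11 ± 0.24 SE and Nfya by 0.72 ± 0.24 SE on the log2 scale (adjusted p = 2.6e-07, 8.52e-06 and 0.00788), per the authors' deposited table. The Nfya call there did not hold with centring on abundant genes (adjusted p = 0.0541). Nfyc passed as higher in SCLC only with scaling to total counts (adjusted p = 0.0258). The median of the 8 in SCLC over Normal was 0.40. Over all genes tested there, 25.3% passed as higher in SCLC and 25.1% as lower, so these counts do not set the 8 apart either. Each of the 8 had at least 174.7 normalized counts in GSK and in both SCLC arms.

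Of 9 genes on the interferon gamma route to Ciita, 7 rose in GSK organoids and none fell, with a median log2 fold change of 2.21, per the authors' deposited table. The share of all genes tested that passed was 21.6% as higher in GSK and 15.5% as lower. In the test for an absolute log2 fold change above 1, 4 of the 9 passed as higher in GSK. Ifng, the cytokine itself, had 114.3 normalized counts in GSK and under 1 in the whole SCLC group, at least 114-fold higher in GSK (adjusted p = 1.58e-12), and was listed at 0 in the table of SCLC against Normal, from the authors' deposited tables. Ifng is made by T cells and natural killer cells. The transcription factor Irf1 had 3797 in GSK against 665.7 in SCLC (log2 fold change 2.51 ± 0.43 SE, adjusted p = 6.33e-08), per the authors' deposited table. The receptor chain Ifngr1 rose by 2.34 ± 0.47 SE, the kinases Jak2 by 2.21 ± 0.37 SE and Jak1 by 1.88 ± 0.45 SE, and the feedback inhibitor Socs1 by 2.44 ± 0.62 SE on the log2 scale, per the authors' deposited table. Ifngr2 (0.57 ± 0.43 SE) and Usf1 (-0.34 ± 0.23 SE), a factor of the Ciita promoter, did not pass, per the authors' deposited table, though Ifngr2 passed as higher with scaling to total counts (adjusted p = 0.035).

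In SCLC organoids 6 of the 8 tested genes of this route fell and none rose, with a median log2 fold change of -1.74, per the authors' deposited table. The share of all genes tested that passed was 25.1% as lower in SCLC and 25.3% as higher. In the test for an absolute log2 fold change above 1, 3 of the 8 passed as lower in SCLC. Irf1 had 618.1 normalized counts in SCLC against 2056 in Normal and Jak2 465.6 in SCLC against 1945 in Normal, per the authors' deposited table. Socs1 (adjusted p = 0.277) and Usf1 (adjusted p = 0.101) did not pass, but Usf1 passed as higher in SCLC with scaling to total counts (adjusted p = 0.0353). With the length and GC trend removed, Socs1 passed as lower in SCLC (adjusted p = 0.047). Each of Ifngr1, Ifngr2, Jak1, Jak2, Irf1 and Usf1 had at least 465.6 normalized counts in SCLC, so none of them was near the floor there.

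Genes of antigen processing and class II turnover split. In GSK over SCLC, 4 of 11 rose, none fell and 7 did not pass, with a median log2 fold change of 0.54, per the authors' deposited table. Over all genes tested, 21.6% passed as higher in GSK and 15.5% as lower. Marchf1, a ubiquitin ligase that removes class II molecules from the surface, had 792.7 normalized counts in GSK against 26.6 in SCLC (log2 fold change 4.90 ± 0.56 SE), and the protease gene Ctsh had 2570 in GSK against 179.6 in SCLC (log2 fold change 3.84 ± 0.48 SE), per the authors' deposited table. Ctsd rose by 2.65 ± 0.42 SE and Ctsb by 1.20 ± 0.44 SE on the log2 scale in GSK, per the authors' deposited table. Ctsl, a protease that can stand in for cathepsin S in thymic epithelium, had 4108 in GSK against 5572 in SCLC and did not pass (adjusted p = 0.37), per the authors' deposited table. Scaled to total counts, 7 of the 11 passed as higher, with Ifi30, Lgmn and Marchf8 added.

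Between SCLC and Normal, 6 of these 11 fell and 1, Ctsz, rose, with a median log2 fold change of -0.78, per the authors' deposited table. Over all genes tested, 25.1% passed as lower in SCLC and 25.3% as higher. The Ctsz call did not hold with the length and GC trend removed (adjusted p = 0.286), nor that of Ctsl, one of the 6, with scaling to total counts (adjusted p = 0.0593). Cst3, which had not passed, passed as lower in SCLC with the length and GC trend removed (adjusted p = 0.00234). Ctsh had 167.7 normalized counts in SCLC against 142856 in Normal, per the authors' deposited table. Ctsh is abundant in alveolar type II cells, where it helps to process surfactant protein. Ctss stood at 6.68 times Ctsh per kilobase in GSK against 0.00675 times in Normal, or 18.6 times in GSK against 0.0187 times in Normal by exon length, from the authors' deposited tables. The costimulatory genes, which activate T cells beside class II molecules, rose in GSK in 4 of 4 cases, among them Cd86 at least 226-fold and Cd80 by 6.54 ± 0.70 SE and Cd40 by 4.80 ± 0.74 SE on the log2 scale, from the authors' deposited table. Beside these 4, the share of all genes tested that passed as higher in GSK was 21.6%. In SCLC over Normal, Cd80 and Cd86 fell, Icosl rose (adjusted p = 0.0392, or 0.0988 with centring on abundant genes) and Cd40 did not pass, per the authors' deposited table. The median log2 fold change of the 4 was 5.67 in GSK over SCLC and, with bounds, -2.56 in SCLC over Normal.

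**Figure D4:**
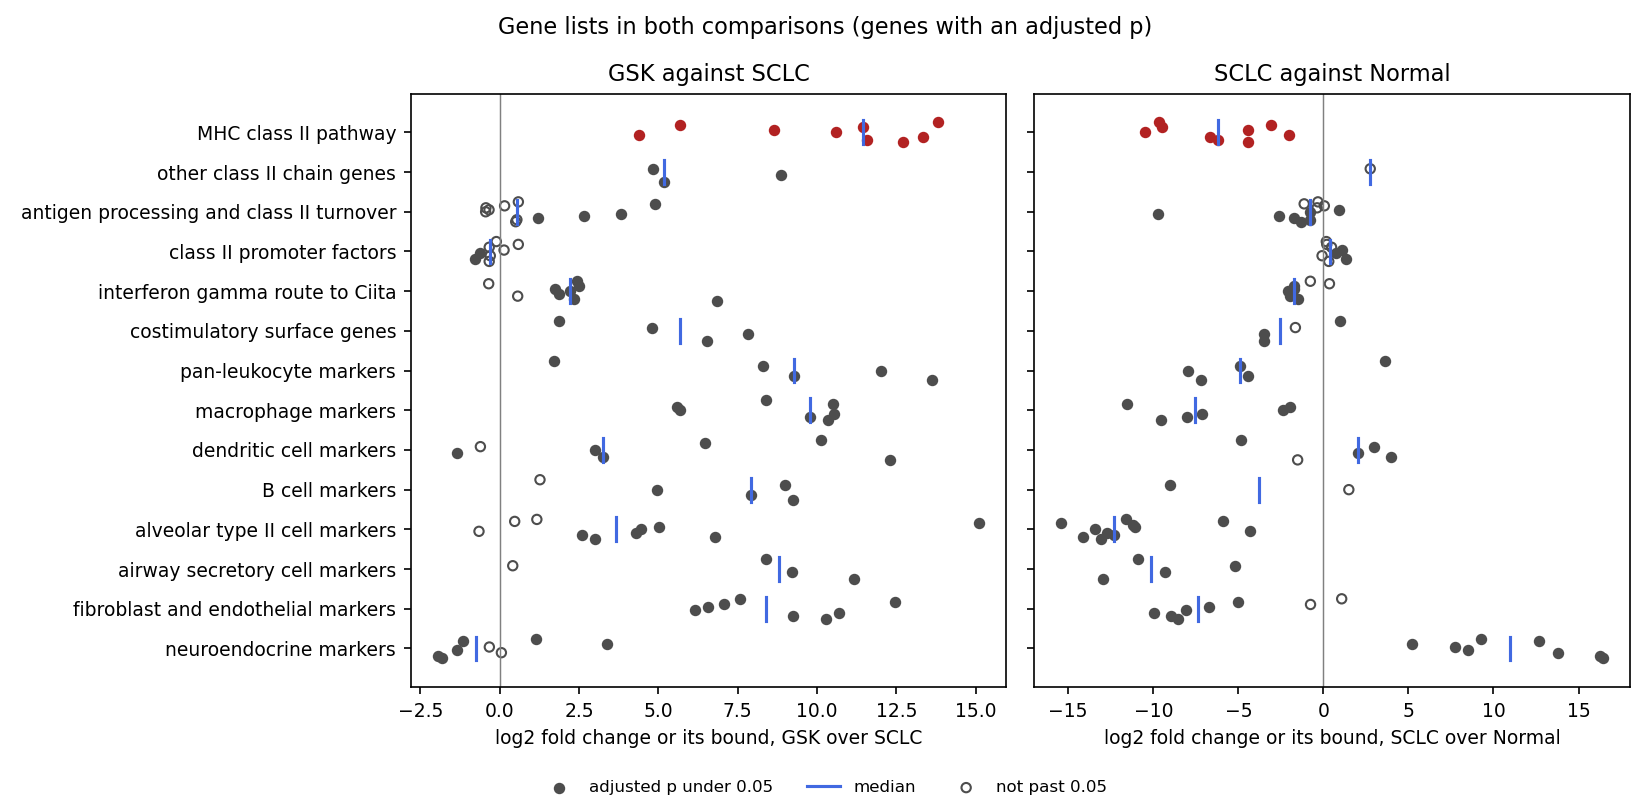
log2 fold change, or its bound where a group held under 1 normalized count, of each gene with an adjusted p in 14 gene groups, for GSK over SCLC (left) and SCLC over Normal (right), from the authors' deposited tables. Filled points passed an adjusted p of 0.05, open points did not, blue bars are medians and the 9 class II pathway genes are red. The class II promoter factors have medians of -0.31 (left) and 0.40 (right), while the class II pathway, leukocyte, macrophage, fibroblast and endothelial genes lie right of 0 for GSK over SCLC.

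Many markers of other cell types also passed as higher in GSK, though some fell or did not pass. All 5 pan-leukocyte markers rose in GSK, with a summed mean of 43388 normalized counts in GSK against 2653 in SCLC, and Ptprc, which encodes CD45, had 12562 in GSK and under 1 in the whole SCLC group, per the authors' deposited table. Most of the SCLC sum was Coro1a, at 8685 in GSK against 2619 in SCLC, per the authors' deposited table. All 7 macrophage markers rose in GSK, summing to 15117 in GSK against 123.5 in SCLC, where Adgre1, Itgam, Marco and Siglecf lay under the floor, per the authors' deposited table. Beside these lists, 21.6% of all genes tested passed as higher in GSK and 15.5% as lower. The macrophage markers still seen in SCLC were Csf1r at 3.56, Cd68 at 55.2 and Mrc1 at 64.3, per the authors' deposited table. With genes whose whole SCLC group held under 1 normalized count at their bound, the median log2 fold change was 9.27 for the pan-leukocyte list and 9.77 for the macrophage list.

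Of 7 dendritic cell markers 5 rose, 1 fell and 1 did not pass, and the sum was 6140 normalized counts in GSK against 885.9 in SCLC, per the authors' deposited table. Itgax rose most, to 5002 in GSK with under 1 in the whole SCLC group, while Zbtb46 had 286.7 in GSK against 726.8 in SCLC (adjusted p = 0.0482, or 0.247 with scaling to total counts), per the authors' deposited table. Of 5 B cell markers 4 rose, summing to 2182 in GSK against 182.4 in SCLC, and Ms4a1 and Cd79b had 244.2 and 248.5 in GSK and lay under the floor in SCLC, per the authors' deposited table. Pax5 did not pass (384.9 in GSK against 159.3 in SCLC) and gave most of the SCLC sum, per the authors' deposited table. The medians with bounds were 3.27 for the dendritic cell list and 7.93 for the B cell list. Every listed macrophage, dendritic cell and B cell marker was above the floor in GSK. Beside these counts, 21.6% of all genes tested passed as higher in GSK and 15.5% as lower.

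All 8 fibroblast and endothelial markers rose too, summing to 26900 normalized counts in GSK against 78.5 in SCLC, and Cdh5, an endothelial cadherin, had 5311 in GSK against 0.933 in SCLC, per the authors' deposited table. Of 10 alveolar type II markers tested 7 rose, and their sum over 11 listed genes was 102675 in GSK against 5614 in SCLC, of which Lyz2, shared with macrophages, gave 94202 in GSK, per the authors' deposited table. Sftpc had 1858 in GSK against 232.5 in SCLC, per the authors' deposited table. Neuroendocrine markers summed to 61953 in GSK against 142837 in SCLC, with 2 higher, 4 lower and 2 not passing, per the authors' deposited table. Of the 4, Dll3 did not hold with scaling to total counts (adjusted p = 0.202), centring on abundant genes (adjusted p = 0.0629) or removal of the length and GC trend (adjusted p = 0.573). Of 4 airway secretory markers 3 rose, summing to 7395 in GSK against 216.2 in SCLC, per the authors' deposited table. The medians with bounds were 8.40 for the fibroblast and endothelial list, 3.66 for the alveolar type II list, -0.74 for the neuroendocrine list and 8.79 for the airway list. For each of these lists, the share of all genes tested was 21.6% higher in GSK and 15.5% lower. The part of these cell types in the rise of the class II genes was not tested.

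Set beside the leukocyte marker Ptprc per kilobase, Cd74 stood at 4.21 times in GSK against 86.9 times in Normal, Ctss at 3.98 times in GSK against 19.4 times in Normal and H2-Aa at 2.25 times in GSK against 0.635 times in Normal, from the authors' deposited tables. Per unit of Ptprc, H2-Aa was thus higher in GSK, and Cd74 and Ctss were lower in GSK than in Normal, without a test. By exon length the ratios to Ptprc were 13.8 in GSK against 284 in Normal for Cd74, 15.5 in GSK against 75.5 in Normal for Ctss and 2.60 in GSK against 0.735 in Normal for H2-Aa. Across all genes tested in SCLC over Normal, 25.1% passed as lower in SCLC and 25.3% as higher. In SCLC over Normal, 4 of 5 pan-leukocyte markers fell and Coro1a rose, 6 of 6 tested macrophage markers fell (a sum of 114.7 in SCLC against 4894 in Normal) and all 11 alveolar type II markers fell (a sum of 5240 in SCLC against 3574990 in Normal), per the authors' deposited table. Both cell types are known carriers of class II molecules in lung, and their part in the fall of the 9 genes was not tested. Of 5 dendritic cell markers tested, 3 rose in SCLC, namely Flt3, Zbtb46 and Batf3, and 1 fell, per the authors' deposited table. Flt3 had 12.4 in SCLC against 0.794 in Normal, which is under the floor (adjusted p = 0.0235). In a test for an absolute log2 fold change above 1, Flt3 did not pass (adjusted p = 0.184), and 1 of these markers passed as higher and 0 as lower. Of 2 B cell markers tested 1, Cd79b, fell, with 0.442 in SCLC against 231.9 in Normal, per the authors' deposited table. Of the fibroblast and endothelial markers 6 of 8 fell, all 4 airway secretory markers fell and all 8 neuroendocrine markers rose in SCLC, with sums of 73.4, 203.2 and 132414 in SCLC against 9154, 30883 and 38.4 in Normal, per the authors' deposited table. The medians with bounds were -4.93 for the pan-leukocyte, -7.55 for the macrophage, 2.02 for the dendritic cell, -3.77 for the B cell, -12.28 for the alveolar type II, -7.40 for the fibroblast and endothelial, -10.11 for the airway and 10.99 for the neuroendocrine list.

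The genes most like Cd74 over both comparisons were taken by the distance between their log2 fold changes, among 11769 genes with a mean of at least 100 normalized counts in both tables. Among the 5 nearest were Arhgap45 at 0.69, Cybb at 0.83, Col3a1 at 0.90 and Fcgr2b at 1.06 on the log2 scale. Their SEs in SCLC over Normal, from 0.70 for Arhgap45 to 1.69 for Fcgr2b, were each at least as large as the distance. Their SCLC means there were near zero, from 0.784 for Fcgr2b to 3.05 for Col3a1. The order of likeness is therefore within the error of the fits and was not tested. Cybb is a subunit of the phagocyte oxidase, Col3a1 a fibrillar collagen of fibroblasts and Fcgr2b an inhibitory Fc receptor. Cybb had 6510 normalized counts in GSK, and in the other comparison 1.25 in SCLC against 1060 in Normal, from the authors' deposited tables. Of the other class II pathway genes, H2-Ab1, H2-DMa, H2-DMb1 and Ctss met that mean in both tables and were not among these 5, while H2-Aa, H2-Eb1, H2-DMb2 and Ciita were below it and were not considered.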

How the data were processed

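Stranded mRNA libraries of 9 mouse organoid samples were sequenced as paired reads of 150 bases and aligned with STAR 2.7.9a to GRCm39, per the labels and the submitters' processing notes. The sources used here do not give the counting tool or annotation. Per the file headers, both deposited tables have DESeq2 column names. The signal values are the authors' mean normalized counts over 6 libraries. The log2 columns hold the authors' fold change and its standard error. The score column holds the authors' statistic, equal to fold change over standard error within 8.9e-08. The deposited p-value columns hold unadjusted and Benjamini-Hochberg adjusted values over 24719 genes (SCLC against Normal) and 28376 genes (GSK against control).

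From these, group means were implied with 3 libraries per group. The control was taken as SCLC because its means matched those of SCLC in the other table (SD of the log2 ratio 0.0084). No column held a single library, so the call was the authors' adjusted p under 0.05, and no replicate, pairing or batch could be examined or left out. A group under 1 normalized count in all entered folds at a floor of 3 normalized counts (1.0 per library); such bounds cover counting error only. The 95% intervals are normal, from the standard error. Lengths came from GENCODE M21 (GRCm38) and promoters from RefSeq (GRCm38.p6), since no GRCm39 sequence was used here. Python 3.11.15, pandas 2.3.3 and scipy 1.17.1 were used, and the steps were tested on simulated data. The 9 genes and the 13 lists of 91 other genes were chosen with earlier results of these data known, so no list was tested as a set. Named genes were all 9 members, every gene of the promoter factor, interferon gamma and other chain lists, in each other list up to 4 called genes by size of change, and the 5 genes nearest to Cd74; genes named beyond that rule (Ctsl, Sftpc, Insm1, Brd2, Dexi and the markers that did not pass or stood apart) were chosen after their values were seen. Some genes of these lists are not reported here.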

Additional observations from a re-analysis of the deposited data

How the results depend on the processing

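No paired analysis was possible because the deposited tables hold no value for a single library, and for the same reason no library could be left out. The 9 class II pathway genes were called in both comparisons, higher in GSK and lower in SCLC, under all alternatives run: scaling to total counts, centring on abundant genes, testing for an absolute log2 fold change above 1, no filter on low means, an adjusted p under 0.01, and removal of a trend with length and GC content. Scaling, centring and the removed trend change the fold changes themselves, and each member kept its direction under these 3, while the other settings change only the test. The highest adjusted p of a member was 2.64e-10 for GSK over SCLC and 0.00154 for SCLC over Normal, both in the test against 1. Over all genes, scaling to total counts gave 8738 higher and 1970 lower in GSK, against 6129 and 4404 as deposited, so the share of calls that were higher was 81.6% against 58.2%. That scaling moved all fold changes of GSK over SCLC up by 0.51 on the log2 scale and those of SCLC over Normal by 0.09, and centring moved them by 0.25 up and 0.18 down. Centring gave 70.2%, removal of the length and GC trend 70.6%. The test against 1 called 3161 higher and 563 lower in GSK (84.9% higher), and 2949 higher and 3391 lower in SCLC over Normal, against 6252 and 6201. A floor of 10 normalized counts in place of 3 lowered the 6 bounds, for Ctss to 4320-fold and for H2-Aa to 2040-fold in GSK over SCLC. In SCLC over Normal the bounds became 6.6-fold for H2-Aa and 6.54-fold for H2-DMb2, below the 8.54-fold fall of Ciita. The calls of Rfxap, Nfya, Nfyc, Creb1, Ctsz, Ctsl, Cst3, Ifngr2, Usf1, Socs1, Icosl, Zbtb46 and Dll3, among others, changed with scaling, centring or the removed trend, as given above. Depth in reads is unknown, and precision near zero in SCLC rests on a few normalized counts.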
